A study of Homo sapiens with 8 samples.

Results

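Taxol was set against its vehicle DMSO to find which gene knockouts became rarer or more common among Taxol-resistant cells grown under the drug. The comparison used 6 of the 8 libraries of the series, 3 from DMSO-treated and 3 from Taxol-treated cells, and every sgRNA of the deposited table that sets these groups side by side. The table held 7775 sgRNAs against 779 genes and 80 non-targeting sgRNAs, and 775 of the genes had 10 sgRNAs each. All cells were T1-160, a line obtained from SUM159PT triple-negative breast cancer cells by stepwise exposure to Taxol. All of them carried Cas9 and the lentiviral library EPIKOL, which targets chromatin regulators, and had passed a puromycin selection during which verapamil, an inhibitor of drug efflux, was present. They were then kept in vehicle (DMSO) or in 160 nM Taxol for 16 population doublings. The results hold for this resistant line only. Nothing in the labels tells whether replicates were infected or cultured separately, so p-values that rest on the spread among libraries may measure technical variation.

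Taxol stabilizes microtubules, so that dividing cells stall in mitosis and die. Cells can escape it by pumping it out, mainly through P-glycoprotein, the product of ABCB1. In a pooled knockout screen each cell carries an sgRNA whose count in the genomic DNA stands for the abundance of the cells with that knockout, so that an sgRNA becomes rarer under the drug when its knockout makes cells more sensitive than their neighbors and more common when it lets them grow better. Many of the targeted proteins work in shared complexes that write, read or erase histone marks, or that slide and evict nucleosomes, and the results are ordered by these complexes.

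The libraries held 2045984 to 11771418 reads, or 260.5 to 1499 reads per sgRNA, and no sgRNA was at 0 in any of them. Levels are given as log2(normalized count + 1), averaged over the sgRNAs of a gene, and a change is the mean level in Taxol minus the mean level in DMSO, with the SD between libraries pooled over both groups (n = 3 each). On this scale the change of an sgRNA with few counts comes out too small. The 10 most abundant sgRNAs held 2.61%, 2.36% and 2.80% of the counts in DMSO 1, 2 and 3. They held 10.6%, 6.23% and 8.91% in Taxol 1, 2 and 3, so that the groups did not overlap, and the means of 2.59% ± 0.218 and 8.60% ± 2.22 (SD, n = 3) gave p = 0.1 in an exact two-sided permutation test, the smallest value that 3 against 3 libraries allow. The 100 most abundant sgRNAs likewise held 8.42% to 9.72% in DMSO and 15.6% to 25.5% in Taxol. Taxol 2, the library with the fewest reads, lay nearest to the DMSO libraries in both shares.

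**Figure D1:**
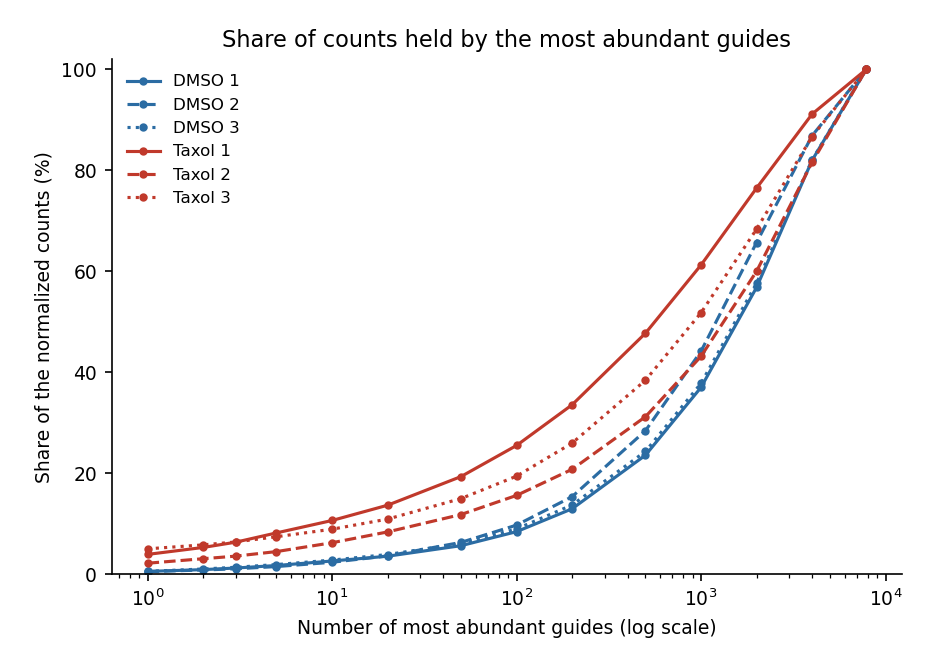
Cumulative share of the normalized counts (percent) held by the most abundant sgRNAs, against their number on a log scale, with DMSO libraries in blue, Taxol libraries in red and a line style for each replicate number. The first 10 sgRNAs held 2.36% to 2.80% under DMSO and 6.23% to 10.6% under Taxol.

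Cells that lost ABCB1, which encodes a drug efflux pump, or GATAD1, a chromatin zinc-finger protein, were called depleted under Taxol by a test over sgRNAs. Cells that lost the ubiquitin protease USP22 were called enriched. Of these genes, only USP22 was also called by the main test against the variation among libraries. The GATAD1 call was lost with any library left out. The test over sgRNAs was robust rank aggregation (RRA), which asks whether the sgRNAs of a gene sit together near an end of the ranked list. Its exact one-sided p-values were adjusted by the Benjamini-Hochberg method over the 779 genes. RRA takes the sgRNAs of a gene as independent units, although they are not replicates of the treatment. Its p-values therefore do not measure the spread of a gene between libraries. At an adjusted p under 0.05 it called 2 genes depleted (0.257% of those tested) and 1 enriched (0.128%). At an unadjusted p under 0.05, the threshold used by the study, 37 genes were depleted (4.75%) and 51 enriched (6.55%). A one-sided p under 0.05 would be met by a similar share of genes if no knockout had an effect. Limma on the gene means, where the error is the variation among libraries, called 1 gene higher (0.128%) and 0 lower (0%) after adjustment, with 12 lower (1.54%) and 36 higher (4.62%) at an unadjusted p under 0.05. With the replicate number as a block, limma on the gene means called 3 genes, namely USP22, ABCB1 and the remodeler CHD2. All 3 Taxol libraries lay below all 3 DMSO libraries for 35 genes (4.49%) and above them for 49 (6.29%). Similar shares would arise from a random order of the libraries. Lack of overlap was part of the rule by which many genes below were named, so it adds no support for them. The change of a gene ranged from -0.87 for ABCB1 to 1.54 for USP22 around a median of 0.03, with an SD over genes of 0.26, and went beyond 0.5 for 11 genes downward and 28 upward. Of the 779 genes 350 lay below 0 and 429 above 0.

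**Figure D2:**
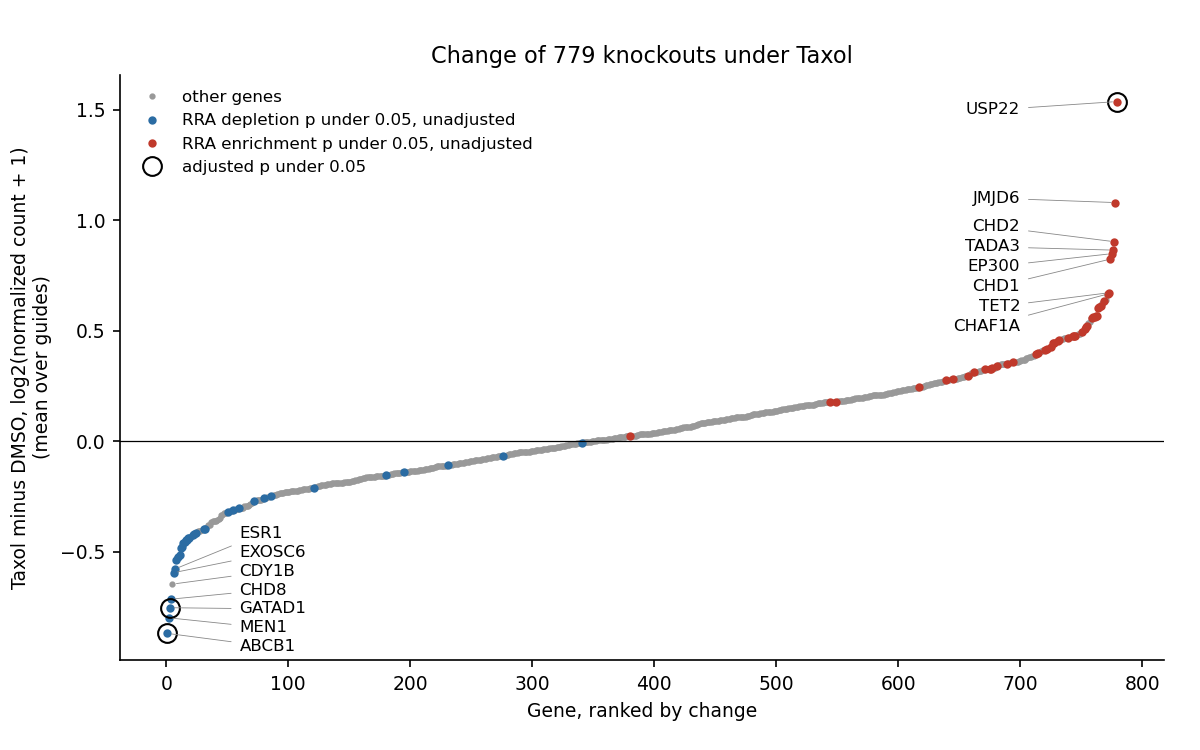
Change of each of the 779 genes (Taxol minus DMSO on the log2 scale, mean over sgRNAs) in rank order, with unadjusted RRA depletion in blue, unadjusted RRA enrichment in red and a black ring for an adjusted p under 0.05. ABCB1 (-0.87), GATAD1 (-0.75) and USP22 (1.54) carry the ring; CDY1B stands low without a call and has 4 sgRNAs.

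ABCB1 encodes the efflux pump P-glycoprotein, and its loss gave the lowest change of all genes. Its level was 9.10, 9.11 and 8.40 in DMSO 1, 2 and 3 and 7.75, 8.16 and 8.10 in Taxol 1, 2 and 3. All Taxol libraries thus lay below all DMSO libraries, although DMSO 3 stood nearer to them than the other two. The change was -0.87 ± 0.33, or 0.547 of the DMSO level, with an exact RRA p of 8.11e-05 (adjusted p = 0.0316) and a limma p of 0.000497 (adjusted p = 0.193; 0.0116 with the replicate block). Of its 10 sgRNAs 9 were lower, the lowest at -1.62, and the remaining sgRNA was at 0.18. That sgRNA had normalized counts of 1460.9, 329 and 762 in DMSO 1, 2 and 3 and of 422, 378 and 3367 in Taxol 1, 2 and 3, so it was high in a single Taxol library. The call was lost when DMSO 1, DMSO 2, Taxol 1 or Taxol 3 was left out (exact RRA adjusted p up to 0.302) and kept without DMSO 3 or Taxol 2, while the change lay between -1.11 and -0.75 over these 6 fits.

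The sgRNAs of ABCB1 were not only lower in Taxol but also closer to each other between the Taxol libraries. The lowest of them had normalized counts of 830.4, 1882.5 and 777.5 in DMSO 1, 2 and 3 and of 319, 409 and 321 in Taxol 1, 2 and 3. Over its 10 sgRNAs the SD between libraries averaged 0.96 in DMSO, rank 718 from the lowest of 779 genes, and 0.42 in Taxol, rank 23. The median of this SD over all sgRNAs was 0.70 in DMSO and 0.63 in Taxol. GATAD1 went from 0.87 to 0.46 (rank 42 in Taxol) and MEN1 from 0.63 to 0.34 (rank 3), whereas USP22 stood at 0.73 and 0.76. These are selected genes, and no test was made of these spreads or of whether other depleted genes share them.

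ABCG2 and ABCC1, 2 further efflux pumps of the ABC family, were not called. The study, which ranked genes with MAGeCK, reported ABCG2, a positive control of its library, as highly depleted under Taxol. ABCG2, the breast cancer resistance protein, had levels of 8.08, 7.82 and 8.57 in DMSO and 8.20, 7.76 and 8.11 in Taxol, which overlapped, and its change of -0.13 ± 0.31 gave an exact RRA p of 0.0751 (adjusted p = 0.971). Its sgRNAs were divided, 5 lower and 5 higher, from -1.46 to 1.33, and the sgRNA next to the lowest was at -1.39. ABCC1, the multidrug resistance protein MRP1, was at -0.01 ± 0.48 (exact RRA p = 0.583), and its sign turned with the library left out.

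GATAD1 is a zinc-finger protein found with SIN3 and histone demethylase complexes at trimethylated histone H3. Its level was 9.11, 9.90 and 9.06 in DMSO and 8.56, 8.65 and 8.60 in Taxol, so that the Taxol libraries lay together below all DMSO libraries and DMSO 2 stood highest. The change was -0.75 ± 0.34 with an exact RRA p of 5.20e-05 (adjusted p = 0.0316) and a limma p of 0.00351 (adjusted p = 0.391). Of its 10 sgRNAs 8 were lower and 6 were below -0.9, while the highest, at 0.61, had 6951 normalized counts in Taxol 1 against 694 to 2209 in the other libraries. The call was lost with any of the 6 libraries left out, with exact RRA adjusted p-values of 0.132 to 0.686, and the change without DMSO 2 was -0.48.

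GATAD1 is also the library gene next to ABCB1 on chromosome 7. In the RefSeq gene order of GRCh38.p14, 24 protein-coding genes lie between them, none of which had sgRNAs here. On the other side of ABCB1 the nearest targeted genes were GTF2I, a general transcription factor, at 0.29 ± 0.21, and BAZ1B, a bromodomain kinase, at 0.00 ± 0.32. Beyond GATAD1 came TRRAP, the scaffold of SAGA and TIP60, at 0.09 ± 0.35, the splicing factor BUD31 at 0.08 ± 0.19 and TAF6 of TFIID at 0.35 ± 0.25. Of the 5 targeted genes on each side only GATAD1 and CBX3, an HP1 protein at -0.44 ± 0.36 (exact RRA p = 0.0374), passed the unadjusted depletion threshold. Position on the chromosome was not tested further.

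USP22 is the ubiquitin protease of SAGA, a coactivator that carries an acetyltransferase and a deubiquitinase module, and its loss gave the highest change of all genes. Its level was 8.41, 8.71 and 8.80 in DMSO and 10.55, 9.76 and 10.22 in Taxol, with a wide gap between the groups. The change was 1.54 ± 0.31, or 2.90 times the DMSO level, with an exact RRA p of 2.10e-08 (adjusted p = 1.64e-05) and a limma p of 5.20e-07 (adjusted p = 0.000405). Of its 10 sgRNAs 9 were higher, 4 of them by more than 2 on the log2 scale. The highest, at 2.68, had 250.1, 178.5 and 345 normalized counts in DMSO 1, 2 and 3 and 1705, 1319 and 1829 in Taxol 1, 2 and 3. RRA called USP22 in all 15 alternative analyses run, with a change of 1.35 to 1.75, and the highest adjusted p among them was 0.0141. No USP22 sgRNA was among the 10 most abundant of any Taxol library.

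**Figure D3:**
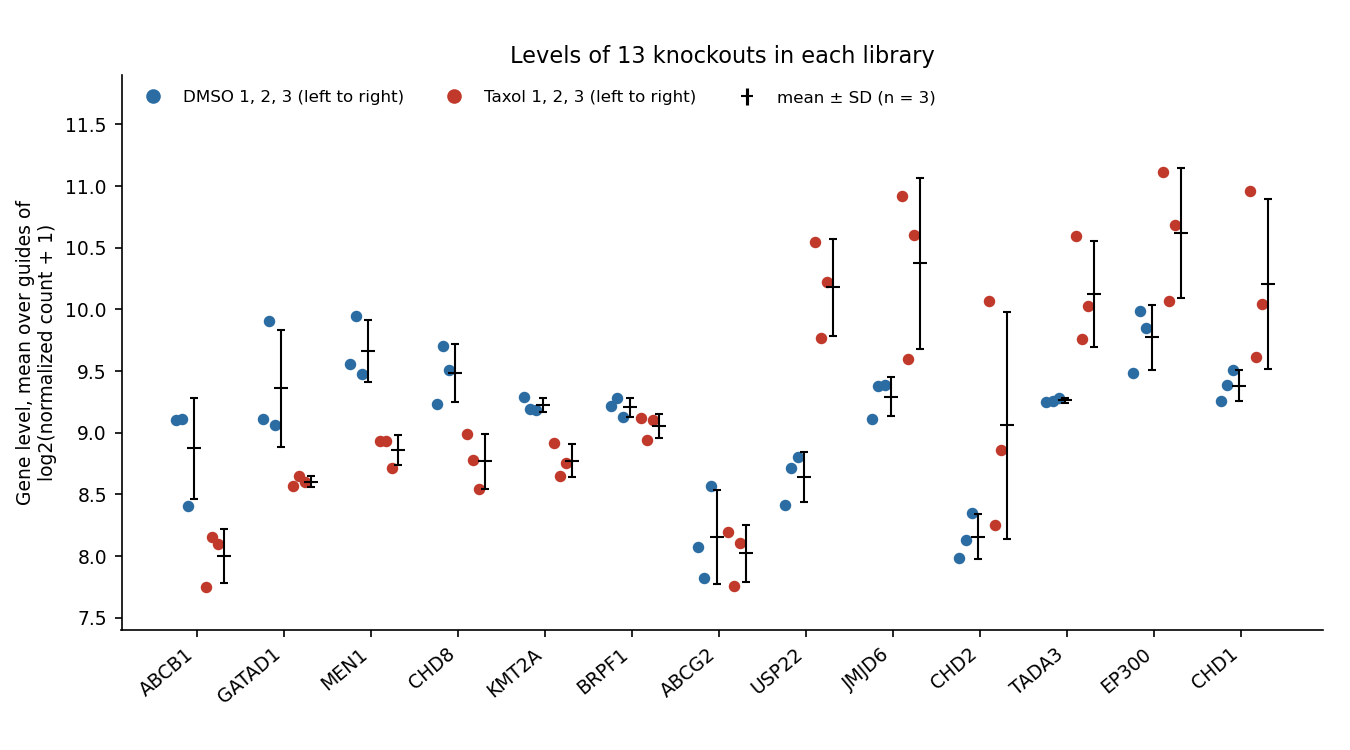
Level of selected knockouts (mean over sgRNAs of log2(normalized count + 1)) by library, blue for DMSO and red for Taxol, replicates 1 to 3 from left to right, and the mean ± SD of each group (n = 3) drawn in black. The 3 called genes do not overlap between groups, ABCG2 and CHD2 do, and Taxol 1 is the highest Taxol library for USP22, JMJD6, CHD2, TADA3, EP300 and CHD1.

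The other measured members of the SAGA deubiquitinase module lay above 0, but not all of them clearly. ATXN7L3, which activates USP22, had levels of 8.90, 9.02 and 9.16 in DMSO and 9.83, 9.34 and 9.47 in Taxol without overlap, and its change was 0.52 ± 0.20 (exact RRA p = 0.0338, adjusted p = 0.654). ATXN7, the tether of the module, was at 0.46 ± 0.53 with overlapping libraries, and 1 of its sgRNAs held 1.37% of the counts of Taxol 1. ENY2 was at 0.04 ± 0.21, about the median of all genes and within its own spread. The median of the 4 measured members was 0.49 (0.32 after centering on the non-targeting sgRNAs) against 0.03 (-0.14) for all genes. USP22 and ATXN7L3 passed the unadjusted threshold for enrichment, as did 6.55% of all genes, and the module was chosen with the result for USP22 known.

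Among the 15 measured acetyltransferase and core subunits of SAGA 10 lay above 0, as did 429 of all 779 genes. The median was 0.09, which became -0.08 when libraries were centered on the non-targeting sgRNAs. TADA3, the adaptor that SAGA shares with the ATAC complex, was the single member of the 15 past the unadjusted enrichment threshold, a share near the 6.55% of all genes. It had almost the same level in DMSO 1, 2 and 3, at 9.25, 9.26 and 9.28, and 10.60, 9.76 and 10.02 in Taxol, all higher. Its change was 0.86 ± 0.30 (exact RRA p = 0.000248, adjusted p = 0.0713), and 9 of 10 sgRNAs were higher. A single TADA3 sgRNA held 3.92% of the counts of Taxol 1, and without the 10 most abundant sgRNAs of each Taxol library the change was 0.77 (exact RRA adjusted p = 0.122). The acetyltransferase KAT2A itself was at 0.09 ± 0.14. In ATAC 6 of 8 measured subunits lay above 0, with a median of 0.24 (0.07 after centering on the non-targeting sgRNAs). Its histone-fold subunit DR1 had levels of 7.98, 8.30 and 8.30 in DMSO and 8.50, 8.70 and 9.22 in Taxol and a change of 0.61 ± 0.29 (exact RRA p = 0.00288, adjusted p = 0.321).

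EP300, the acetyltransferase p300 of histone H3 and many transcription factors, had levels of 9.48, 9.99 and 9.85 in DMSO and 11.12, 10.07 and 10.68 in Taxol. The libraries did not overlap, but Taxol 2 exceeded DMSO 2 only slightly. Its change was 0.85 ± 0.42 with 9 of 10 sgRNAs higher (exact RRA p = 0.00118, adjusted p = 0.153). Its paralog CREBBP was at 0.23 ± 0.43 with overlapping libraries, and the difference between them was not tested.

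Loss of JMJD6, an oxygenase that hydroxylates lysines in splicing factors and histones, had the change next to that of USP22. Its level was 9.11, 9.37 and 9.39 in DMSO and 10.92, 9.60 and 10.60 in Taxol, higher in every Taxol library. The change was 1.08 ± 0.50 with 9 of 10 sgRNAs higher (exact RRA p = 0.000597, adjusted p = 0.0990). Of its sgRNAs 3 were among the 10 most abundant of Taxol 1 or Taxol 2. The sgRNA among the leaders of Taxol 2 had 1833, 910.1 and 1629 normalized counts in DMSO 1, 2 and 3 and 7335, 12703 and 3295 in Taxol 1, 2 and 3, all higher. Without the 10 most abundant sgRNAs of each Taxol library the change of JMJD6 was 0.69 (exact RRA adjusted p = 0.597), and as the median over sgRNAs it was 0.56 (limma adjusted p = 0.837). The other 4 measured JmjC hydroxylases lay between -0.27 and 0.13.

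The chromodomain remodelers went different ways. CHD2 was higher for all 10 sgRNAs, from 0.14 to 1.81. Its levels were 7.99, 8.13 and 8.35 in DMSO and 10.06, 8.25 and 8.86 in Taxol, so that Taxol 2 lay below DMSO 3 and Taxol 1 far above the rest. The change was 0.90 ± 0.67 (exact RRA p = 0.000275, adjusted p = 0.0713; limma with the replicate block, adjusted p = 0.0116) and 0.40 without Taxol 1. CHD1, a remodeler that binds histone H3 trimethylated at lysine 4, had 9.25, 9.38 and 9.51 in DMSO and 10.96, 9.61 and 10.04 in Taxol without overlap, a change of 0.82 ± 0.49 (exact RRA p = 0.000635, adjusted p = 0.0990). Without Taxol 1 the change of CHD1 was 0.45 (exact RRA adjusted p = 0.909). CHD6 was at 0.52 ± 0.29 (exact RRA p = 0.0296), with Taxol 2 just below DMSO 2. CHD8, a remodeler known as a repressor of Wnt target genes, lay at the other end with 9.24, 9.71 and 9.51 in DMSO and 8.99, 8.78 and 8.54 in Taxol. Its change was -0.72 ± 0.23 with 9 of 10 sgRNAs lower (exact RRA p = 0.00153, adjusted p = 0.299). The median of the 10 CHD genes was -0.01, and CHD4, the NuRD remodeler, was at -0.06 ± 0.23. Of these 10 genes 1 passed the unadjusted depletion threshold and 3 that for enrichment (4.75% and 6.55% of all genes).

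**Figure D4:**
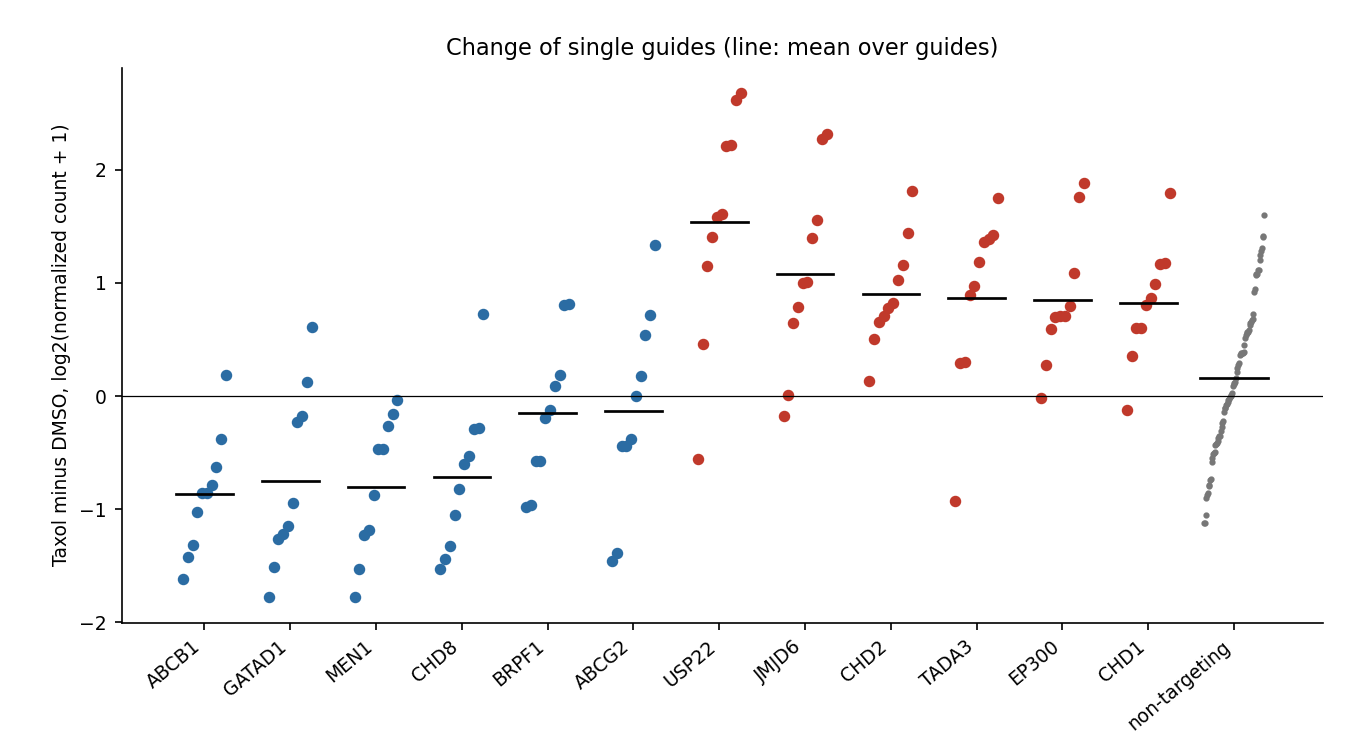
Change of single sgRNAs (Taxol minus DMSO on the log2 scale) for selected genes, blue where the mean is below 0 and red where it is above, and for the 80 non-targeting sgRNAs in gray, with a black line for the mean. All MEN1 sgRNAs lie below 0 and all CHD2 sgRNAs above 0, while the non-targeting sgRNAs range from -1.12 to 1.60.

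Menin, encoded by MEN1, holds the histone H3 lysine 4 methyltransferase KMT2A on chromatin together with PSIP1. MEN1 had levels of 9.55, 9.95 and 9.48 in DMSO and 8.93, 8.93 and 8.72 in Taxol, without overlap. Its change of -0.80 ± 0.20 was the lowest after ABCB1 (exact RRA p = 0.00115, adjusted p = 0.298). All 10 sgRNAs lay below 0, but unequally, from -1.78 to -0.04. As the median over sgRNAs the change of MEN1 was -0.69 (limma adjusted p = 0.720). KMT2A was at 9.29, 9.19 and 9.19 in DMSO and 8.91, 8.65 and 8.75 in Taxol, with a change of -0.45 ± 0.10 (exact RRA p = 0.0148, adjusted p = 0.832). Both genes met a naming rule that required libraries without overlap, so this is no added support. PSIP1 was at -0.42 ± 0.50 (exact RRA p = 0.0203), but its libraries overlapped, and DMSO 3 and Taxol 1 were the highest of their groups. Of the 10 measured members of this group 3 passed the unadjusted depletion threshold and 0 the enrichment threshold (4.75% and 6.55% of all genes), while 5 lay above 0. Its median was -0.13 (-0.30 after centering on the non-targeting sgRNAs).

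The SIN3 corepressor, which recruits histone deacetylases, held genes on both sides. BRMS1L (-0.42 ± 0.24, exact RRA p = 0.00711, adjusted p = 0.832) and ARID4B (-0.44 ± 0.26, exact RRA p = 0.0298, adjusted p = 0.928) passed the unadjusted depletion threshold, as did GATAD1, which was counted with them. Of the 16 measured genes of this group 3 passed it and 1 passed that for enrichment, against 4.75% and 6.55% of all genes. SUDS3, which dimerizes and stabilizes the complex, was at 0.57 ± 0.24 with 8.05, 7.77 and 8.11 in DMSO and 8.86, 8.43 and 8.34 in Taxol (exact RRA p = 0.0162, adjusted p = 0.512), and the scaffold SIN3A was at -0.08 ± 0.23. In NuRD, the deacetylase and remodeler complex, RBBP7 had the tightest replicates of the named genes. It was at 8.05, 7.95 and 7.99 in DMSO and 7.41, 7.50 and 7.47 in Taxol, a change of -0.54 ± 0.05 with 9 of 10 sgRNAs lower (exact RRA p = 0.0277, adjusted p = 0.928; limma p = 0.0148). RBBP7 binds histone H4 and also belongs to SIN3 and PRC2. MTA2 of the same complex was at 0.61 ± 0.31 with 9 of 10 sgRNAs higher (exact RRA p = 0.0166, adjusted p = 0.512). MBD2 passed the depletion threshold (exact RRA p = 0.0432) with a change of only -0.07 ± 0.53 and 6 of 10 sgRNAs higher. Of the 14 measured NuRD genes 2 passed the depletion threshold and 1 that for enrichment, to be read against the same shares of all genes.

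BRPF1, the reader subunit that assembles the MOZ and MORF acetyltransferases, had levels of 9.22, 9.28 and 9.13 in DMSO and 9.12, 8.94 and 9.10 in Taxol. The groups did not overlap, but the gap was narrow, and the change of -0.15 ± 0.09 gave an exact RRA p of 0.274 and a limma p of 0.519. The study, which ranked genes with MAGeCK, counted BRPF1 among the hits of this screen at an unadjusted p under 0.05. It was the only target that its genetic and chemical screens shared. The study's further evidence for BRPF1 came from competition and colony assays, siRNA, a rescue experiment and inhibitors, none of which was examined here. The change of BRPF1 was -0.32 after centering on the non-targeting sgRNAs, -0.32 as the median over sgRNAs, -0.086 after centering on the targeting sgRNAs and -0.095 without Taxol 2. Its sgRNAs were 6 lower and 4 higher, from -0.99 to 0.82. The shared subunit ING5, a reader of trimethylated lysine 4, was at 8.42, 8.54 and 8.52 in DMSO and 7.72, 7.95 and 8.24 in Taxol, a change of -0.52 ± 0.19 with 9 of 10 sgRNAs lower (exact RRA p = 0.0478, adjusted p = 0.932). The catalytic subunits KAT6A and KAT6B were at 0.21 ± 0.15 and 0.31 ± 0.43. All 10 sgRNAs of KAT6B were higher, but only by 0.18 to 0.48, and its libraries overlapped. BRD1 was at -0.16 ± 0.34 with sgRNAs from -2.09 to 1.99 and passed the enrichment threshold against the sign of its mean (exact RRA p = 0.0430), and BRPF3 was at 0.07 ± 0.19. The median of the 7 measured members was -0.15 (-0.32 after centering on the non-targeting sgRNAs). Of these 7 genes 1 passed the unadjusted threshold in each direction (4.75% of all genes for depletion and 6.55% for enrichment).

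Other knockouts past the unadjusted depletion threshold whose libraries did not overlap came from several processes. They were picked by these 2 conditions, and the 4.75% of all genes past the threshold is about what it would pass without any effect. EXOSC6, a core subunit of the RNA exosome, was at 7.38, 7.59 and 7.08 in DMSO and at 6.60 and 6.66 in Taxol 1 and 3, with Taxol 2 just below DMSO 3, a change of -0.60 ± 0.24 (exact RRA p = 0.00619, adjusted p = 0.832). Of the 9 exosome subunits measured, 2 passed the depletion threshold and 1 the enrichment threshold, against 4.75% and 6.55% of all genes. Besides EXOSC6 these were EXOSC3 (0.16 ± 0.17), depleted against its mean, and EXOSC8 (0.28 ± 0.29), enriched. ESR1, the estrogen receptor, was lower for all 10 sgRNAs at -0.58 ± 0.38, with DMSO 2 (9.94) far above DMSO 1 and 3 (8.99 and 9.05) and the Taxol libraries between 8.66 and 8.84 (exact RRA p = 0.0200). The study describes triple-negative tumors as lacking this receptor, and its expression was not measured here. BUB1, a kinase of the spindle checkpoint, was at -0.32 ± 0.13. PADI2, which citrullinates histone arginines, was at -0.31 ± 0.13 and the remodeler ATPase INO80 at -0.30 ± 0.13. These 5 genes had exact RRA adjusted p-values of 0.832 to 0.932.

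Among the other knockouts past the unadjusted enrichment threshold, CHAF1A, the large subunit of the histone chaperone CAF-1, had DMSO libraries that lay close together. It was at 8.00, 8.07 and 8.06 in DMSO and 8.98, 8.38 and 8.76 in Taxol, a change of 0.67 ± 0.22 with 8 of 10 sgRNAs higher (exact RRA p = 0.0152, adjusted p = 0.512). Of the other histone chaperones, ANP32E, which removes the variant H2A.Z, was at -0.40 ± 0.25 (exact RRA p = 0.0436) and SUPT16H of FACT at 0.23 ± 0.25. The 17 measured chaperones held 1 gene past each threshold, near the shares of all genes (4.75% depleted and 6.55% enriched). TBL1XR1 of the NCoR corepressor (0.63 ± 0.35), BAHD1 of heterochromatin (0.60 ± 0.21), PHIP, a bromodomain adaptor of a CUL4 ligase (0.57 ± 0.16), and the helicase RAD54L2 (0.56 ± 0.26) were also higher in every Taxol library, with exact RRA adjusted p-values of 0.386 to 0.564. CUL3, the cullin that works with KEAP1, was at 8.87, 8.97 and 8.72 in DMSO and 9.10, 9.20 and 9.55 in Taxol, a change of 0.43 ± 0.19 (exact RRA p = 0.00682, adjusted p = 0.386), and KEAP1 was at -0.19 ± 0.17.

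The remaining groups are read against the 4.75% of all genes past the unadjusted depletion threshold and the 6.55% past that for enrichment. Counts below 0 are read against 350 of all 779 genes. In SWI/SNF 14 of 21 measured subunits lay below 0 with a median of -0.12 (-0.29 after centering on the non-targeting sgRNAs), and 1 passed in each direction, near the shares of all genes. ARID1A, the DNA-binding subunit of the BAF form, was at -0.45 ± 0.34 with overlapping libraries (exact RRA p = 0.0184) and the ATPase SMARCA4 at -0.43 ± 0.36 without passing it, while SMARCB1 was at 0.02 ± 0.39. ACTL6B, a subunit of neurons, was at 0.47 ± 0.56 (exact RRA p = 0.0151), which rested on Taxol 1 (9.55 against 8.02 to 8.33 in the other libraries). In PRC2, the H3 lysine 27 methyltransferase, 6 of 9 lay below 0 with a median of -0.15 (-0.32 after the same centering), EED at -0.39 ± 0.09 without overlap and EZH2 at -0.15 ± 0.36, and no member passed the threshold. Among the 7 measured genes of homologous recombination BRCA2 (-0.46 ± 0.58, exact RRA p = 0.0406) and RAD54B (-0.46 ± 0.40, exact RRA p = 0.0178) passed that for depletion with overlapping libraries, and BRCA1 was at -0.19 ± 0.26. Of the mitotic kinases, AURKA was at -0.40 ± 0.51 and AURKB at -0.07 ± 0.36, and BUB1 was the single one of 10 past the depletion threshold, about as many as the share of all genes gives. The phosphatase PPP2CA was at -0.48 ± 0.28 (exact RRA p = 0.0450) with overlapping libraries. The 11 histone deacetylases measured, the 4 BET proteins, the 10 genes of DNA break signaling and the 10 of the LSD1 and CoREST complex had no member past either threshold, and lists of this size would hold at most about 1 at the shares of all genes.

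No single sgRNA passed the test after adjustment. Limma per sgRNA called 0 of 7855 lower (0%) and 0 higher (0%) after adjustment, with 122 lower (1.55%) and 158 higher (2.01%) at an unadjusted p under 0.05. The change of a targeting sgRNA had an SD of 0.70, close to the 0.67 of the 80 non-targeting sgRNAs, which target no human gene and ranged from -1.12 to 1.60. The non-targeting sgRNAs stood above the targeting ones in every library. Their median exceeded that of the targeting sgRNAs by 0.49, 0.18 and 0.36 on the log2 scale in DMSO 1, 2 and 3 and by 0.60, 0.51 and 0.63 in Taxol 1, 2 and 3. All Taxol libraries lay above all DMSO libraries, by 0.24 on average (exact two-sided permutation p = 0.1, the smallest possible). When each library was centered on the non-targeting sgRNAs, the median change of all genes moved from 0.03 to -0.14, and RRA called 4 genes enriched (USP22, TADA3, CHD2 and JMJD6) and the same 2 depleted.

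The most abundant sgRNAs of the Taxol libraries were mostly specific to a library. The 30 places among the 10 most abundant sgRNAs of Taxol 1, 2 and 3 were taken by 26 sgRNAs against 23 genes. Only 3 of these sgRNAs occurred in more than 1 list, and these, against SMYD1, CXXC1 and GSG2, were abundant in DMSO as well, that of SMYD1 with 24952 to 30150 normalized counts there. The sgRNAs against TRIM33 and PPP4C, listed for Taxol 2 alone, were also abundant in DMSO, with 10749 to 13222 and 7830 to 9784 normalized counts. By contrast, the leading sgRNA of Taxol 3, against SIRT2, had 300080 normalized counts in Taxol 3 and 3255 to 6956 in the other libraries. That of Taxol 2, against APOBEC1, had 100650 in Taxol 2 and 1324 to 2225 elsewhere. These SIRT2 and APOBEC1 sgRNAs were thus high in a single library each. Only JMJD6 and APOBEC1 had more than 1 sgRNA in these lists.

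The replicates of the whole comparison agreed weakly. Subtracting each DMSO library from the Taxol library of the same number gave 3 changes per gene that share no library. Across the 779 genes, which are not independent replicates, Pearson's r between them was 0.14 for pairs 1 and 2, 0.22 for pairs 1 and 3 and 0.10 for pairs 2 and 3, and 47.4% to 57.1% of genes had the same sign. All 3 pairs were lower for 91 genes and higher for 132. Among the 49 genes with an unadjusted enrichment p under 0.05 and a mean above 0, Taxol 1 was the highest Taxol library for 29 and Taxol 2 the lowest for 30. For the 34 depleted genes with a mean below 0 the extremes were spread evenly, with the lowest value in Taxol 1 for 12, in Taxol 2 for 11 and in Taxol 3 for 11. These genes were chosen on the same values, so the counts are a description. Depth ran the same way, as Taxol 1 held the most reads and Taxol 2 the fewest, and its part in these counts was not tested.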

How the data were processed

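Genomic DNA from 3 DMSO-treated and 3 Taxol-treated T1-160 populations was sequenced for sgRNA counts. The deposited table, made by the authors with MAGeCK 0.5.8 per the labels, gives normalized counts (reads divided by a size factor per library), with the 3 libraries of a group joined in 1 cell, read here in the order of their replicate numbers. Each low value was a whole multiple of a step per library, which gave the reads per library. Read trimming and mapping are not given in the sources used here. The authors' score, p-value and fold change columns, the gene tables, which hold only these, and the tables of the 2 AP libraries were not used. A header line repeated among the data was left out.

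Each sgRNA was tested with limma 3.58.1 (R 4.3.3, eBayes with trend) on log2(normalized count + 1). RRA took the sgRNAs within 25% of the ranks by the moderated statistic, with exact one-sided p-values and Benjamini-Hochberg adjustment in each direction, in place of the random draws of MAGeCK. Gene means were tested two-sided with limma. Both were tested on simulated data. Same-numbered libraries deviated together from their group means (correlation over sgRNAs of 0.17, 0.13 and 0.21 for replicates 1, 2 and 3, against -0.14 to -0.05 for other pairs), so the numbers were taken as pairs in the fit with a replicate block. Gene lists and named genes were chosen with earlier results of these data known: called genes, the 12 largest changes in each direction among genes past the unadjusted RRA threshold whose libraries did not overlap, ABCB1, ABCG2, ABCC1 and BRPF1, and key members and members past the threshold of the lists described. A gene that this rule names is not reported here. ATXN7, ENY2, the neighbors of ABCB1 and the genes of the most abundant sgRNAs were named or summarized after their values were seen. Gene order came from RefSeq (GRCh38.p14), in which 779 of 779 genes were matched. Alternatives were another pseudocount, a filter on low counts, centering on non-targeting or targeting sgRNAs, gene medians and trimmed means, other RRA settings, no abundant sgRNAs, no trend, the replicate block, each library left out, and, chosen after seeing the data, limma-voom on recovered reads.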

Additional observations from a re-analysis of the deposited data

How the results depend on the processing

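RRA called 2 genes depleted and 1 enriched, and limma on gene means called 1. Depletion calls were 1 with RRA restricted to 10% of the ranks (GATAD1), 0 with sgRNAs ranked by fold change and 0 to 1 with a library left out, where the remaining call, without DMSO 3 or Taxol 2, was ABCB1. Enrichment calls were 2 with sgRNAs under a mean count of 50 left out, 2 with sgRNAs ranked by fold change, 4 after centering on the non-targeting sgRNAs and 1 to 3 with a library left out, the highest without Taxol 2. Limma called 0 to 4 genes with a library left out (0 without DMSO 1, 2 without DMSO 3 and 4 without Taxol 2) and 3 with the replicate block, which changed no other call. RRA called ABCB1 in 9 and GATAD1 in 8 of 15 alternatives. The reads recovered from the steps gave 2 depleted and 1 enriched call. Leaving out a library moved the excess of the 10 most abundant sgRNAs in Taxol to 4.98 to 7.19 percentage points and that of the non-targeting sgRNAs to 0.16 (without DMSO 2) to 0.31. Of 1054 changes of 62 named genes under 17 settings, 1007 kept direction and side of the threshold, 13 lost and 7 gained a call, and 27 turned sign, none of them in a called gene. Calls in this count are those of RRA where it was run, so a limma call gained or lost beside it was not counted. Centering on non-targeting sgRNAs gave KAT2A -0.076, BRPF3 -0.10, SMARCB1 -0.15 and EXOSC3 -0.0061, and centering on targeting sgRNAs gave ABCC1 0.053 and CHD4 0.0070. Medians over sgRNAs gave DR1 -0.021, KAT2A -0.33, SMARCB1 -0.059, SIN3A 0.026 and EXOSC3 -0.022, and the trimmed mean gave MBD2 0.015. With a library left out, the change ranged from -0.039 to 0.18 for BRPF3, -0.24 to 0.30 for SMARCB1, -0.18 to 0.052 for SIN3A, -0.25 to 0.32 for ABCC1, -0.33 to 0.23 for MBD2, -0.34 to 0.083 for EZH2, -0.26 to 0.22 for AURKB, -0.30 to 0.072 for ABCG2, -0.011 to 0.53 for CREBBP, -0.0072 to 0.17 for KAT2A, -0.41 to 0.012 for BRD1 and -0.18 to 0.12 for CHD4. The causes were not tested. With 3 libraries a group the exact permutation test cannot go below 0.1, and Taxol 2 had the fewest reads per sgRNA.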
